A study of Mus musculus with 12 samples.

Results

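The 77 genes described here belong to families named for enzymes that write or erase marks on histones and DNA, and some members act on other proteins or lack activity. They are the protein-coding genes whose GENCODE M21 mouse symbol starts with Kdm, Kmt, Setd, Hdac, Sirt, Ezh, Dnmt, Tet, Prmt or Kat followed by a digit, with Hdac3 left out, and all 77 were among the 48672 gene IDs counted. The rule matched 87 symbols, of which 78 were protein-coding before Hdac3 was removed, and the counted IDs held 21682 protein-coding genes in all. The rule reads symbols and no measured value. By prefix the genes fell into 18 lysine demethylases (Kdm), 18 lysine methyltransferases (Kmt, Setd and Ezh), 10 zinc-dependent deacetylases (Hdac), 7 sirtuins (Sirt), 8 acetyltransferases (Kat), 8 arginine methyltransferases (Prmt) and 8 genes of DNA methylation (Dnmt and Tet).

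Histone lysine methyltransferases and demethylases add and remove methyl groups whose effect depends on the residue: methylation of lysine 4 of histone H3 marks active promoters and enhancers, and methylation of lysine 27 by the Polycomb enzymes marks silent genes. Acetyltransferases and deacetylases set the acetylation that goes with open chromatin. DNA methyltransferases place methyl groups on cytosines of CpG dinucleotides, and the TET enzymes oxidise them, which leads to their removal. In the thymus these enzymes are known for fixing cell fates as precursors pass selection. The repressor BCL6 itself acts by recruiting corepressor complexes that contain deacetylases.

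The sequenced RNA came from thymic iNKT (invariant natural killer T) cells, T lymphocytes with a nearly fixed receptor that reads lipid antigens, sorted from thymi of C57Bl/6J mice aged 4 to 5 weeks. Stage 0 cells carried CD24 and lacked CD44, stage 1 cells lacked both, and all bound the tetramer and the antibody to the T cell receptor beta chain. The mice were wild type (WT) or CDCre;Bcl6F/F (Bcl6KO), a Cre transgene with both Bcl6 alleles floxed. What drives this Cre is not spelled out further in the labels. Each of the 4 groups, stages 0 and 1 of WT and of Bcl6KO, has 3 libraries, and thymi of 4 to 7 mice were pooled. The mice were not treated, and their sex is not given. Whether each library of a group had its own pool is not stated, so p-values here reflect the spread among these libraries alone, which may in part be technical.

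Library totals ran from 4129919 to 8038717 counts. The 77 enzyme genes took between 0.782% and 1.05% of them. One gene, Sp100, took 10.8%, 23.9% and 17.9% of the counts in the Bcl6KO stage 0 libraries and at most 5.03% in any other library. The Bcl6KO stage 0 libraries also detected the fewest genes, 14860 to 17734 against 18417 to 22028 elsewhere, and had 6 to 13 of the 77 enzyme genes at 0 counts against 1 to 4 elsewhere. The 6 markers of iNKT and T cells were above the detection floor in all groups. The summed level of 7 markers of double-positive thymocytes, the population from which iNKT cells arise, was 322 to 1330 CPM (counts scaled to a common library size) in WT stage 0, 657 to 857 in Bcl6KO stage 0, and 12.5 to 70.2 in the stage 1 libraries. That of 14 genes of dividing cells was 1380 to 1508 CPM in WT stage 0, 1489 to 3148 in WT stage 1, 3350 to 4862 in Bcl6KO stage 0 and 3445 to 5632 in Bcl6KO stage 1. B cell markers reached 161.5 CPM in Bcl6KO stage 0 library 2, and all 5 were above the floor in that group. Dendritic cell markers summed to 105.1 CPM in WT stage 0 library 1 and to at most 41.55 CPM elsewhere. Myeloid markers reached 81.45 CPM in Bcl6KO stage 0 library 1 and 98.43 CPM in Bcl6KO stage 1 library 3, against at most 63.79 CPM in WT. Thymic epithelium markers were highest in WT stage 0 library 3, at 80.5 CPM. In bulk RNA, fewer cells of a type and less RNA per cell cannot be told apart.

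The targeted gene went against its label in these counts. Bcl6 stood at 373, 217 and 275 CPM in WT stage 0 and at 511, 657 and 652 CPM in those labelled Bcl6KO. Its stage 1 values were 8.77, 4.15 and 8.62 CPM in WT and 14.7, 56.1 and 25.2 CPM in those labelled Bcl6KO. The libraries labelled Bcl6KO were thus the higher ones at both stages. A count over all exons of the gene does not check a deletion of part of it, so every genotype direction below rests on the labels alone.

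Promoter sequence was available from RefSeq (GRCm38.p6) for 65 of the 77 genes, as windows reaching 250 bases upstream of the start. Kdm5b was the 1 enzyme gene past the test described below, in a call lost in 9 of 12 fits that each left out 1 library. For that reason the stretch upstream of Kdm5b is shown. It lies at chr1:134559928-134560170 on the plus strand, just before the gene (chr1:134560171-134635285 in GENCODE M21), and its 12 CpG dinucleotides are in capitals.
Kdm5b: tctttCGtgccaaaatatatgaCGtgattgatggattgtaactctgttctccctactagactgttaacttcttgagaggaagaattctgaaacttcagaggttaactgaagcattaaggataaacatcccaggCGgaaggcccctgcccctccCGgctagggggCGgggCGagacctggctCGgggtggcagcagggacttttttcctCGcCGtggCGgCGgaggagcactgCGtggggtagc
Promoters of the enzyme genes were rich in CpG, with a median of 17 per window (quartiles 13 and 24) against 6 (quartiles 2 and 16) over all 27025 genes with a window. These genes were not matched to the enzyme genes for gene type or level, so the richness is not shown to be particular to the enzymes.

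Both strands of the 250 upstream bases were searched for the BCL6-type word TTCCTNGAA and for the E2F-type words TTTCGCGC, TTTGGCGC, TTTCCCGC and TTTGCCGC, E2F being a factor family of dividing cells. No window of the 65 enzyme genes held the BCL6-type word, which 1.54% of all genes with a window held. E2F-type words were in 4 of 65 (6.15%) against 2.16% of all genes. Each of these words holds a CpG, in which the enzyme windows are rich. The comparison was not matched for CpG content or for the number of windows per gene. The 4 stretches are printed with the match in capitals, because Dnmt1 among them is described below. They lie at chr5:115484298-115484327 (minus strand), chr7:4740011-4740040 (plus), chr9:20952824-20952853 (minus) and chr11:100712508-100712537 (minus), in the order given. Upstream here is relative to the RefSeq start of the window. The stretches of Sirt4 and Dnmt1 lie inside their GENCODE M21 genes (chr5:115478010-115484725 and chr9:20907209-20959888).
Sirt4: gtgttctgatccggctgaaggTTTCCCGCt
Kmt5c: ggccagaagagGCGGGAAAaagagagcaat
Dnmt1: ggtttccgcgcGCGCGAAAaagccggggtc
Kat2a: aaggatgggaaGCGGCAAAggaagactacg
A match is a run of letters and does not show binding. A missing word says nothing about a factor's binding elsewhere in the gene.

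Levels between genes are compared as RPKM, reads scaled by exonic length in kilobases and by library size. Averaged over the 12 libraries, 69 of the 77 enzyme genes reached 1 RPKM, 40 reached 10 and 16 reached 20, and 63 had counts in all 12 libraries. Kat6a, the acetyltransferase MOZ, had the highest mean over all libraries at 56.8 RPKM. Next were Kmt5a (50.2 RPKM), which places monomethylation on lysine 20 of histone H4, and Setd6 (47.6 RPKM). Kmt2a (40.3 RPKM), the MLL1 enzyme of histone H3 lysine 4, and Kmt2e (39.6 RPKM) followed. By prefix these genes count among the methyltransferases, which does not show that each has the activity. Their spread was wide: Kmt5a was 40.1 ± 18.2 RPKM in WT stage 0 and 65.3 ± 19.8 RPKM in Bcl6KO stage 0 (SD, n = 3), so these leading genes were not separated in rank.

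By the mean over all 12 libraries, the leading genes of the other classes were Kdm2a (25.8 RPKM), Kdm5a (24 RPKM) and Kdm6b (23.3 RPKM) among demethylases and Hdac1 (27.6 RPKM), Hdac2 (17.5 RPKM) and Hdac7 (16.3 RPKM) among deacetylases. The place of Kdm6b rested on stage 0: its stage 1 means of 13.7 RPKM in WT and 14.5 RPKM in Bcl6KO were below those of Kdm6a, 18.0 and 16.5 RPKM. Dnmt1, the maintenance methyltransferase (28.7 RPKM), and Tet3 (27.6 RPKM) led the genes of DNA methylation. Prmt3 (16.7 RPKM) and Prmt5 (14.2 RPKM) led the arginine methyltransferases, and Sirt7 (18.7 RPKM) and Sirt2 (10.6 RPKM) the sirtuins. At the other end, Prmt8, an arginine methyltransferase known from the brain, had counts in 1 of 12 libraries, and Dnmt3c, a germline DNA methyltransferase, in 4. Dnmt3l, the catalytically inactive cofactor of the germline enzymes, averaged 0.311 RPKM. These genes, with Kdm4d and Hdac11, did not pass the filter on low counts, which left 72 enzyme genes tested.

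**Figure D1:**
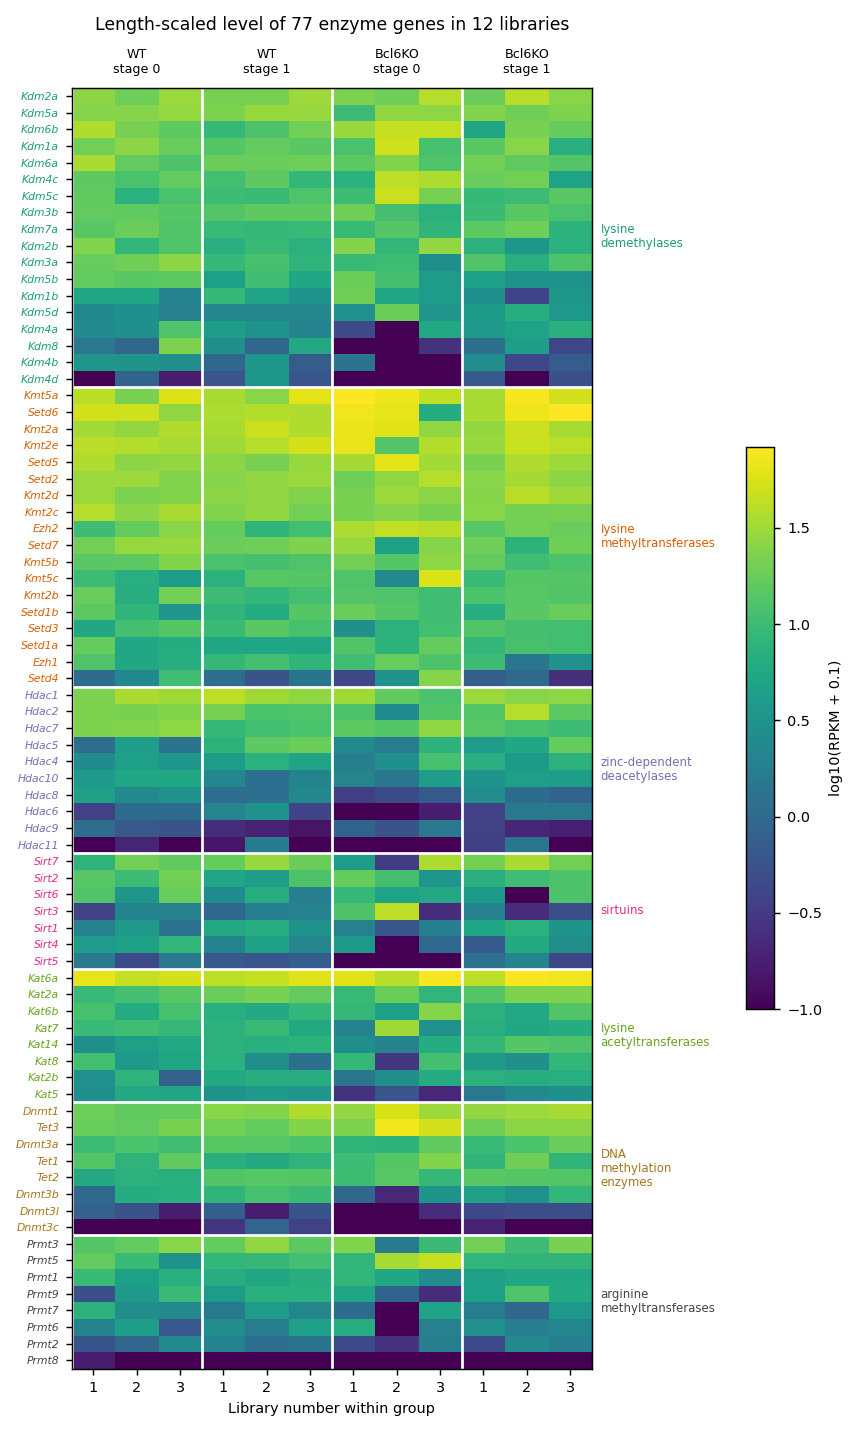
Heat map of log10(RPKM + 0.1) for the 77 enzyme genes (rows, grouped by class and ordered by mean level) in the 12 libraries (columns). Kat6a is the brightest row on average, and the Bcl6KO stage 0 columns hold 6 to 13 genes at 0 counts against 1 to 4 in the other columns.

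The enzyme genes varied less between libraries of a group than genes in general. Their median coefficient of variation was 33.9% in WT stage 0, 22% in WT stage 1, 60.6% in Bcl6KO stage 0 and 33.1% in Bcl6KO stage 1, against 57.4%, 36.2%, 83.4% and 49.8% over all 15704 tested genes. The comparison was not matched for level, and the Bcl6KO stage 0 libraries were the most variable for both.

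Stage 1 was compared with stage 0 to ask which enzyme genes change as CD24 is lost. All genes were fitted together with edgeR's quasi-likelihood test, and p-values were adjusted by the Benjamini-Hochberg method over all 15704 tested genes, with 0.05 as the threshold. Averaged over both genotypes, Kdm5b fell and no other enzyme gene passed the test. That is 1 of 72 enzyme genes, against 3.46% of all tested genes, of which 2.04% (321 genes) rose and 1.42% (223 genes) fell. Without adjustment, 16 of the 72 (22.2%) had a p under 0.05, against 18.3% of all genes. DESeq2 called 13 of the 72 (9.52% of all genes), and limma voom with quality weights called 3 (2.6% of all genes). The median log2 fold change of the 72 was -0.10 against 0.03 over all genes, with 31 positive and 41 negative. The median of the 72 was not stable, and neither was that of all genes, given here in brackets. It was 0.004 (0.0263) without WT stage 1 library 1 and -0.0205 (0.0528) without WT stage 0 library 1. Without Bcl6KO stage 1 library 1 it was -0.0228 (-0.0222), and without library 3 of that group -0.0529 (0.0279). It was -0.0443 (0.151) without Bcl6KO stage 0 library 1, -0.037 (0.234) with limma voom and 0.0321 (0.0146) with the Sp100 share as a covariate. The gap between the medians thus shrank in some fits and grew in others.

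Within WT alone edgeR called 0 of 72 enzyme genes, against 0.433% of all genes. An unadjusted p under 0.05 was reached by 7 of them (9.72%) against 8.4% of all genes, DESeq2 called 4 (2.31% of all genes) and limma voom 2 (1.92% of all genes). Within the libraries labelled Bcl6KO edgeR again called 0 of 72, against 0.675% of all genes. There 18 (25%) had an unadjusted p under 0.05 against 16.4%, DESeq2 called 13 (8.34% of all genes) and limma voom 0 (0.0828% of all genes). The sign of the stage difference was the same in both genotypes for 45 of 72 enzyme genes (62.5%), against 59.7% of all tested genes. These 2 comparisons share no library.

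The 3 stage 1 libraries lay wholly above the 3 of stage 0 for 7 of the 72 enzyme genes in WT (12.5% of all genes) and wholly below for 10 (9.06% of all genes). Among the libraries labelled Bcl6KO the counts were 9 above (11.8% of all genes) and 6 below (5.76% of all genes). In both genotypes Hdac9 lay wholly below (1 of 72, against 1.88% of all genes) and Kat14 wholly above (1 of 72, against 3.29%). Beside all stage differences stands the fall of the double-positive thymocyte markers given above, 6 of whose 7 genes fell in the averaged test. All 3 tested B cell markers were also lower at stage 1 (median log2 difference -3.00, 1 of them called), with sums of 3.35 to 161.5 CPM at stage 0 and 0.41 to 7.99 CPM at stage 1. Within Bcl6KO the mean Sp100 share was 17.5% at stage 0 and 2.14% at stage 1, and the mean number of detected genes 16290 and 20130. The part of these shifts in the enzyme differences was not tested.

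Lysine demethylases leaned towards lower values at stage 1 in WT. Of the 17 tested, 15 had a negative log2 difference there, with a median of -0.49 against -0.000199 over all genes, and none passed the test. In the libraries labelled Bcl6KO 10 of 17 were negative, with a median of -0.06. Averaged over genotypes, 1 of 17 fell, Kdm5b, and none rose, against 1.42% and 2.04% of all genes. The averaged median was -0.30, against 0.03 over all genes.

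Kdm5b removes methyl groups from lysine 4 of histone H3, the mark of active promoters. Its level was 269, 245 and 260 CPM in WT stage 0 and 72.1, 172 and 89.0 CPM in WT stage 1. In the libraries labelled Bcl6KO it was 304, 190 and 67.0 CPM at stage 0 and 74.3, 49.1 and 50.3 CPM at stage 1. The WT groups did not overlap, while the third Bcl6KO stage 0 library was below the highest of stage 1. Averaged over genotypes Kdm5b fell by 1.45 on the log2 scale (SE 0.34, edgeR adjusted p = 0.0351). Within WT the log2 difference was -1.22 (SE 0.48, edgeR adjusted p = 0.476), and within the libraries labelled Bcl6KO it was -1.69 (SE 0.49, edgeR adjusted p = 0.117). The stage differences of the genotypes were not shown to differ (log2 difference between them -0.47, SE 0.67, edgeR adjusted p = 0.94).

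The Kdm5b call was close to the threshold. It was lost in 9 of 12 fits that each left out 1 library, with edgeR adjusted p between 0.0513 and 0.107 and log2 differences between -1.57 and -1.17. These were the fits without any 1 of the WT stage 0 libraries, without library 1 or 3 of WT stage 1, without library 1 of Bcl6KO stage 0, and without any 1 of Bcl6KO stage 1. It was also lost with a replicate block (log2 difference -1.41, edgeR adjusted p = 0.0522) and with the Sp100 share as a covariate (log2 difference -1.68, edgeR adjusted p = 0.129).

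Kdm2b, a CpG-binding demethylase that also recruits a Polycomb complex, was at 250, 91.9 and 140 CPM in WT stage 0 and 76.9, 102 and 77.5 CPM in WT stage 1. It stood at 260, 92.3 and 299 CPM in Bcl6KO stage 0 and at 79.7, 36.8 and 77.5 CPM in Bcl6KO stage 1. Groups of different stage overlapped in WT only. The averaged log2 difference was -1.33 (SE 0.35, edgeR adjusted p = 0.0543), and 8.74% of its exonic bases are shared with other genes.

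Kdm6b, which removes methylation from lysine 27 of histone H3, was at 259, 146 and 109 CPM in WT stage 0 and 60.8, 87.5 and 137 CPM in WT stage 1. Among the libraries labelled Bcl6KO it stood at 206, 323 and 313 CPM at stage 0 and 35.6, 148 and 118 CPM at stage 1. As for Kdm2b, the stages overlapped in WT and not in Bcl6KO. Its averaged log2 difference was -1.17 (SE 0.36, edgeR adjusted p = 0.0954). Its X-linked relative Kdm6a was nearer to level, with group means of 21.6, 18.0, 17.2 and 16.5 RPKM in the WT stages 0 and 1 and the Bcl6KO stages 0 and 1. Kdm1a, the LSD1 enzyme of lysine 4, averaged 21, 15, 24.7 and 15.6 RPKM in the same order, with an SD of 22.3 RPKM in Bcl6KO stage 0.

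Among the 18 lysine methyltransferases none passed the stage test, and 14 had a negative averaged log2 difference (median -0.17). Ezh2, the main catalytic subunit of Polycomb repressive complex 2, was at 68.6, 112 and 169 CPM in WT stage 0 and 113, 53.9 and 71.0 CPM in WT stage 1. The libraries labelled Bcl6KO held 244, 299 and 269 CPM at stage 0 and 95.7, 134 and 117 CPM at stage 1. WT groups overlapped and Bcl6KO groups did not. Its averaged log2 difference was -0.89 (SE 0.27, edgeR adjusted p = 0.0892). Ezh1, the second catalytic subunit, averaged 8.22 ± 4.10 RPKM in WT stage 0, 9.25 ± 1.54 in WT stage 1, 13.5 ± 3.61 in Bcl6KO stage 0 and 4.70 ± 4.60 in Bcl6KO stage 1 (SD, n = 3).

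Of the enzymes that methylate lysine 4, Kmt2d, the MLL4 enzyme of enhancers, averaged 25.4, 25.4, 25.9 and 32.1 RPKM in the WT stages 0 and 1 and the Bcl6KO stages 0 and 1, with SDs from 1.99 to 8.13 RPKM. Kmt2a averaged 32.4, 40.0, 51.9 and 37.0 RPKM, with an SD of 21.6 RPKM in Bcl6KO stage 0. Setd4 had an averaged log2 difference of -3.14 (SE 0.95, edgeR adjusted p = 0.0908), which rested on single high libraries: 56.1 CPM in WT stage 0 library 3 and 131 CPM in Bcl6KO stage 0 library 3, against 0.799 to 16.3 CPM in the other 10.

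**Figure D2:**
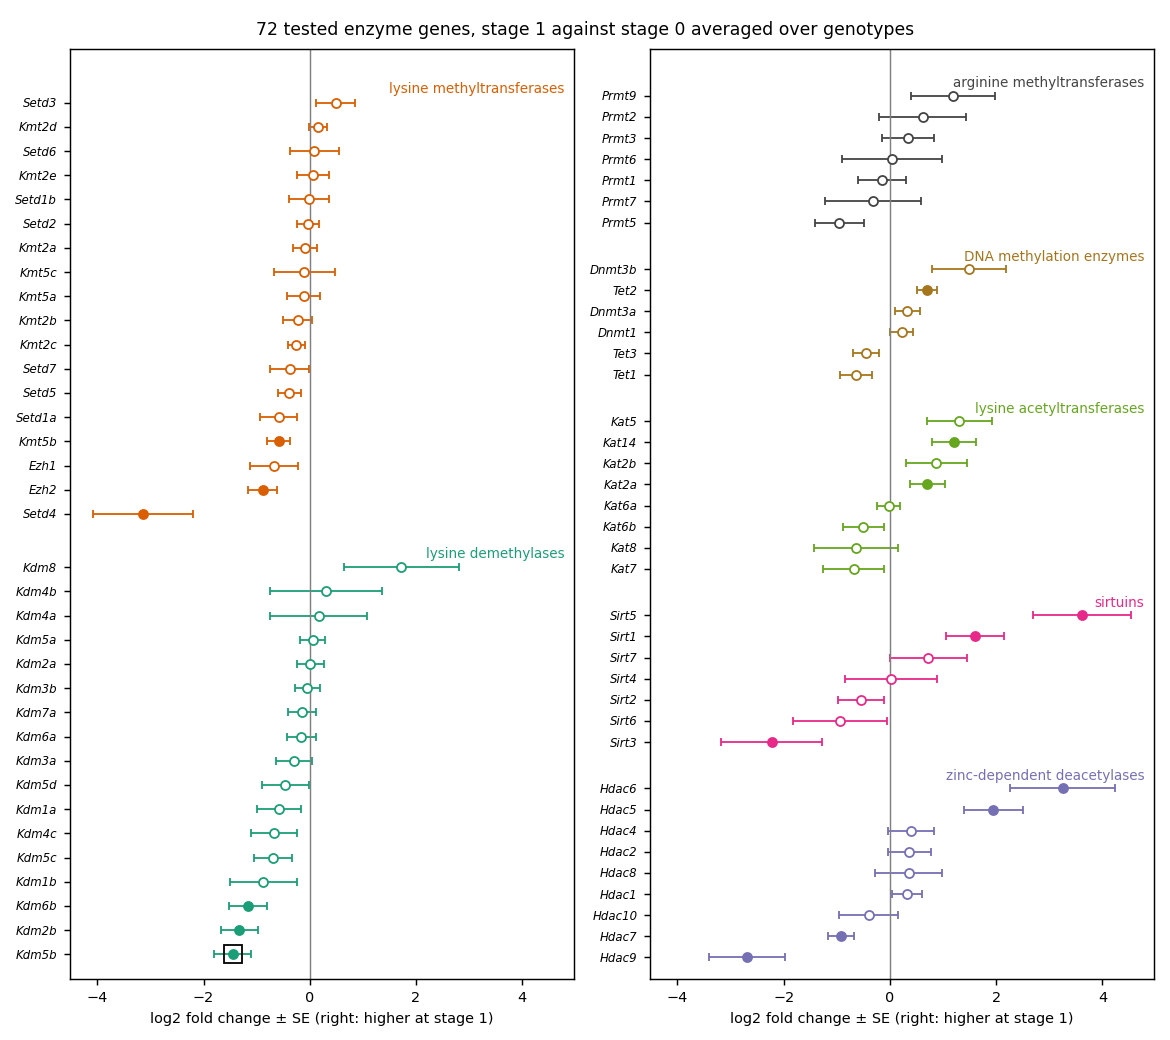
Log2 fold change ± SE of stage 1 against stage 0, averaged over genotypes, for the 72 tested enzyme genes by class. Filled points mark an unadjusted p under 0.05 (16 genes) and the square marks the 1 gene past the adjusted threshold, Kdm5b at -1.45.

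The class IIa deacetylases Hdac4, Hdac5, Hdac7 and Hdac9 shuttle between nucleus and cytoplasm on receptor signals. None of the 9 tested deacetylases passed the stage test, and 6 of them had a positive averaged log2 difference (median 0.35). The genotypes differed in sign, with a median of -0.53 in WT (4 of 9 positive) and 0.66 in the libraries labelled Bcl6KO (7 of 9 positive). Medians also differed in sign for sirtuins (-0.90 in WT and 0.90 in Bcl6KO) and acetyltransferases (-0.26 and 0.42). These differences were not tested for any class. Hdac7, known for its role in thymocyte selection, was at 152, 157.5 and 178.5 CPM in WT stage 0 and 58.4, 73.5 and 82.9 CPM in WT stage 1. In the libraries labelled Bcl6KO it was at 103, 91.4 and 184 CPM at stage 0 and 96.1, 77.9 and 66.5 CPM at stage 1. The WT stages did not overlap, while the Bcl6KO stages did. The averaged log2 difference of Hdac7 was -0.92 (SE 0.25, edgeR adjusted p = 0.0614). Within WT it was -1.18 (SE 0.35, edgeR adjusted p = 0.28). DESeq2 (adjusted p = 0.0344) and limma voom (adjusted p = 0.0303) called Hdac7 within WT.

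Hdac5 went the other way. It was at 8.95, 35.8 and 10.6 CPM in WT stage 0 and 66.6, 135 and 162 CPM in WT stage 1, without overlap. The libraries labelled Bcl6KO held 21, 14.0 and 67.0 CPM at stage 0 and 34, 49.1 and 148 CPM at stage 1, with overlap. Its averaged log2 difference was 1.95 (SE 0.55, edgeR adjusted p = 0.0705). Hdac9, described because its p in the averaged comparison was among the 3 lowest, was low throughout: 14.9, 8.07 and 6.89 CPM in WT stage 0, 1.99, 1.38 and 0.615 CPM in WT stage 1, 11.4, 7.02 and 20.1 CPM in Bcl6KO stage 0, and 3.97, 1.59 and 1.2 CPM in Bcl6KO stage 1. No stage 1 library reached a stage 0 library of its genotype. The averaged log2 difference was -2.69 (SE 0.71, edgeR adjusted p = 0.0566).

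As shares of the summed RPKM of the 4 class IIa genes, Hdac7 made up 79.7% ± 6.81 in WT stage 0 and 36.4% ± 5.42 in WT stage 1 (SD, n = 3). Hdac5 made up 6.73% ± 5.06 and 44.95% ± 7.24 in the same groups. In the libraries labelled Bcl6KO the share of Hdac7 was 68.7% ± 10.3 at stage 0 and 46.9% ± 15.7 at stage 1, and that of Hdac5 12.2% ± 3.66 and 30.5% ± 17.3. Hdac7 was the leading class IIa gene in all 6 stage 0 libraries. Hdac5 led in 2 of 3 WT stage 1 libraries and in 1 of 3 Bcl6KO stage 1 libraries. The sets of paralogs were chosen after the values were seen, and the shares carry no test.

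**Figure D3:**
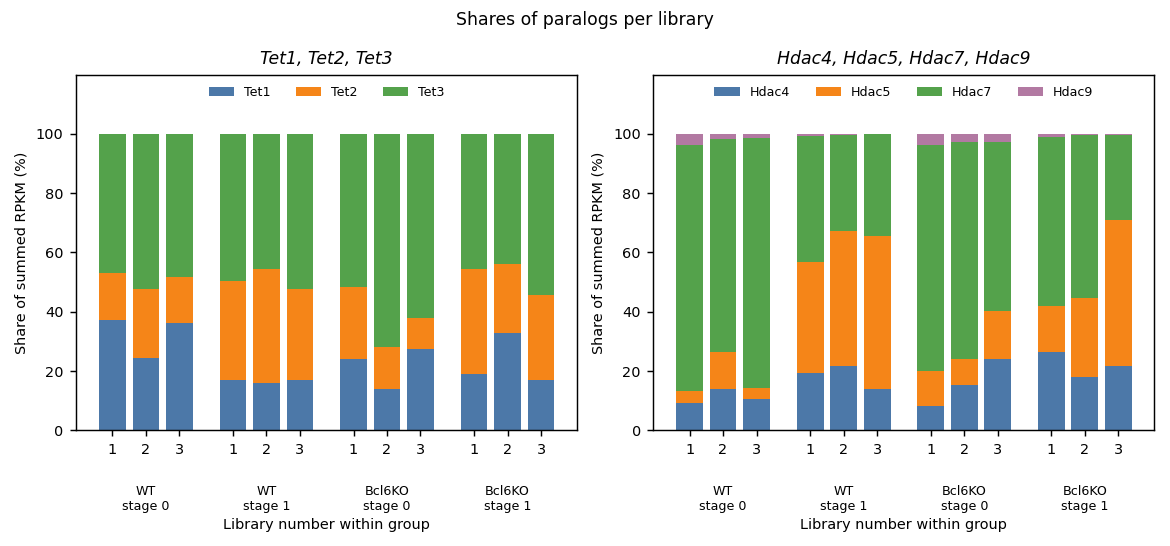
Share of summed RPKM (%) taken by each gene in the TET family (left) and in the class IIa deacetylases (right), 1 bar per library. In WT the Tet2 share runs from 15.6% to 23.1% at stage 0 and from 30.6% to 38.4% at stage 1, and the Hdac7 share from 71.9% to 84.1% and from 32.3% to 42.5%.

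The class I deacetylases Hdac1 and Hdac2, catalytic subunits of the Sin3, NuRD and CoREST complexes, had the highest means of the class over the 12 libraries, although Hdac7 exceeded Hdac2 in both stage 0 groups (24.1 RPKM in WT and 18.6 RPKM in Bcl6KO). Hdac1 averaged 29.7 ± 6.88 RPKM in WT stage 0, 33.8 ± 8.25 in WT stage 1, 19.8 ± 10.5 in Bcl6KO stage 0 and 27.2 ± 2.73 in Bcl6KO stage 1 (SD, n = 3). Hdac2 averaged 22.3 ± 1.41, 15.5 ± 4.81, 9.47 ± 6.02 and 22.6 ± 14.1 RPKM in the same order. For Hdac2 the stage 1 libraries lay below stage 0 in WT and above it in the libraries labelled Bcl6KO.

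Hdac6, the mainly cytoplasmic deacetylase of tubulin, was at 1.59, 5.71 and 5.71 CPM in WT stage 0 and 11.8, 17.2 and 1.64 CPM in WT stage 1. The Bcl6KO stage 0 libraries held 0, 0 and 0.394 CPM, all below the floor of 3 counts, and Bcl6KO stage 1 held 1.59, 8.15 and 8.19 CPM. Its averaged log2 difference of stage 1 against stage 0 was 3.25 (SE 0.99, edgeR adjusted p = 0.095), a fitted value that depends on the prior count where counts are near 0.

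Among sirtuins, deacylases that consume NAD, none of 7 passed the stage test. Sirt5, a mitochondrial enzyme that removes succinyl and related groups, had counts of 0 in all 3 Bcl6KO stage 0 libraries, where 0 counts allow up to 0.586 CPM on average. It was at 8.75, 2.17 and 8.27 CPM in WT stage 0, 3.39, 2.96 and 3.90 CPM in WT stage 1, and 7.15, 11.7 and 2 CPM in Bcl6KO stage 1. Measured against that floor, the mean of Sirt5 in Bcl6KO stage 1 (6.96 CPM) was at least 11.9-fold higher than in Bcl6KO stage 0. This bound is one of means and does not hold for each library, the lowest of which was at 2 CPM. The edgeR adjusted p of Bcl6KO stage 1 against Bcl6KO stage 0 was 0.0505.

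Sirt1, a nuclear deacetylase of histones and transcription factors, was at 9.74, 19.3 and 6.30 CPM in WT stage 0 and 30.5, 35.0 and 15.8 CPM in WT stage 1. Bcl6KO stage 0 held 9.38, 2.65 and 9.06 CPM and Bcl6KO stage 1 28.2, 39.2 and 16.8 CPM. The stages did not overlap in Bcl6KO and overlapped in WT, and the averaged log2 difference was 1.60 (SE 0.54, edgeR adjusted p = 0.133). Sirt3, the main mitochondrial deacetylase, was uneven within Bcl6KO stage 0, at 76.3, 256 and 0.788 CPM, against 0.795 to 11.8 CPM in the other 9 libraries. Of its exonic bases 12.7% are shared with other genes.

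Of the 8 acetyltransferases none passed the stage test, with 4 positive and 4 negative averaged log2 differences. Kat14, a subunit of the ATAC complex, was at 12.9, 21.1 and 27.4 CPM in WT stage 0 and 34.9, 32.2 and 35.5 CPM in WT stage 1. The libraries labelled Bcl6KO held 13.0, 9.10 and 29.5 CPM at stage 0 and 39.3, 66 and 59.3 CPM at stage 1. All stage 1 libraries exceeded the stage 0 libraries of their genotype, and the averaged log2 difference was 1.21 (SE 0.42, edgeR adjusted p = 0.141). Its exons share 14.7% of their bases with Pet117 on the same strand. Kat2a, the GCN5 subunit of SAGA, averaged 11.6 ± 2.49 RPKM in WT stage 0, 18.6 ± 2.35 in WT stage 1, 11.8 ± 5.39 in Bcl6KO stage 0 and 19.6 ± 5.18 in Bcl6KO stage 1 (SD, n = 3). Kat6a, the MOZ enzyme, averaged 54.9 ± 9.81, 49.25 ± 9.88, 59.3 ± 18.6 and 63.8 ± 18.4 RPKM in the same order. The averaged log2 difference of Kat2a was 0.70 (SE 0.32, edgeR adjusted p = 0.268).

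Genes of DNA methylation leaned towards higher values at stage 1 in WT. Of the 6 tested, 5 had a positive log2 difference there (median 0.54), and in the libraries labelled Bcl6KO 3 of 6 had one (median 0.01). None passed the test. Tet2, one of the enzymes that oxidise methylated cytosine, was at 99.2, 123 and 116 CPM in WT stage 0 and 224, 241.5 and 236.5 CPM in WT stage 1. In the libraries labelled Bcl6KO it was at 173, 243 and 147 CPM at stage 0 and 249.9, 228 and 228 CPM at stage 1. WT stages were clearly apart, whereas Bcl6KO stage 0 library 2 lay among those of stage 1. The log2 difference was 1.05 within WT (SE 0.27, edgeR adjusted p = 0.153) and 0.69 averaged over genotypes (SE 0.19, edgeR adjusted p = 0.0614). DESeq2 (adjusted p = 0.0199) and limma voom (adjusted p = 0.047) called Tet2 within WT.

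Dnmt1, which copies methylation onto new DNA strands, was at 139, 118.5 and 124 CPM in WT stage 0 and 184, 175.5 and 274 CPM in WT stage 1. It stood at 205, 404 and 229 CPM in Bcl6KO stage 0 and 205, 227 and 255 CPM in Bcl6KO stage 1. WT stage 0 was lower than all other 9 libraries. The log2 stage difference within WT was 0.73 (SE 0.31, edgeR adjusted p = 0.522). WT stage 0 was also the group with the lowest dividing-cell sums, given above, and their part in the result was not tested.

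The de novo enzymes were lower per length. Dnmt3a averaged 10.9 ± 1.22, 13.8 ± 1.26, 10.6 ± 4.77 and 13.2 ± 4.08 RPKM in the WT stages 0 and 1 and the Bcl6KO stages 0 and 1 (SD, n = 3). Dnmt3b averaged 4.80 ± 3.40, 9.71 ± 1.78, 1.37 ± 1.60 and 5.35 ± 2.79 RPKM. Tet1 averaged 12.4 ± 4.21, 6.86 ± 0.912, 15.7 ± 6.65 and 11.8 ± 6.44 RPKM. As a share of the 3 TET genes, Tet2 made up 18.3% ± 4.23 in WT stage 0 and 34.15% ± 3.96 in WT stage 1, and 16.4% ± 7.13 and 29.0% ± 6.10 in the libraries labelled Bcl6KO.

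Arginine methyltransferases showed no stage lean, with 4 of 7 averaged log2 differences positive (median 0.04) and none past the test. Prmt1, the enzyme of most asymmetric dimethylation, averaged 7.04 ± 2.72, 6.15 ± 0.587, 5.51 ± 2.90 and 5.11 ± 0.616 RPKM in the WT stages 0 and 1 and the Bcl6KO stages 0 and 1 (SD, n = 3). Prmt5, the main symmetric enzyme, was at 64.6, 38.4 and 12.2 CPM in WT stage 0, 33.9, 34.4 and 43.5 CPM in WT stage 1, 32.3, 136 and 183 CPM in Bcl6KO stage 0 and 32.8, 31.4 and 32.1 CPM in Bcl6KO stage 1. A pair of Bcl6KO stage 0 libraries stood above all others.

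**Figure D4:**
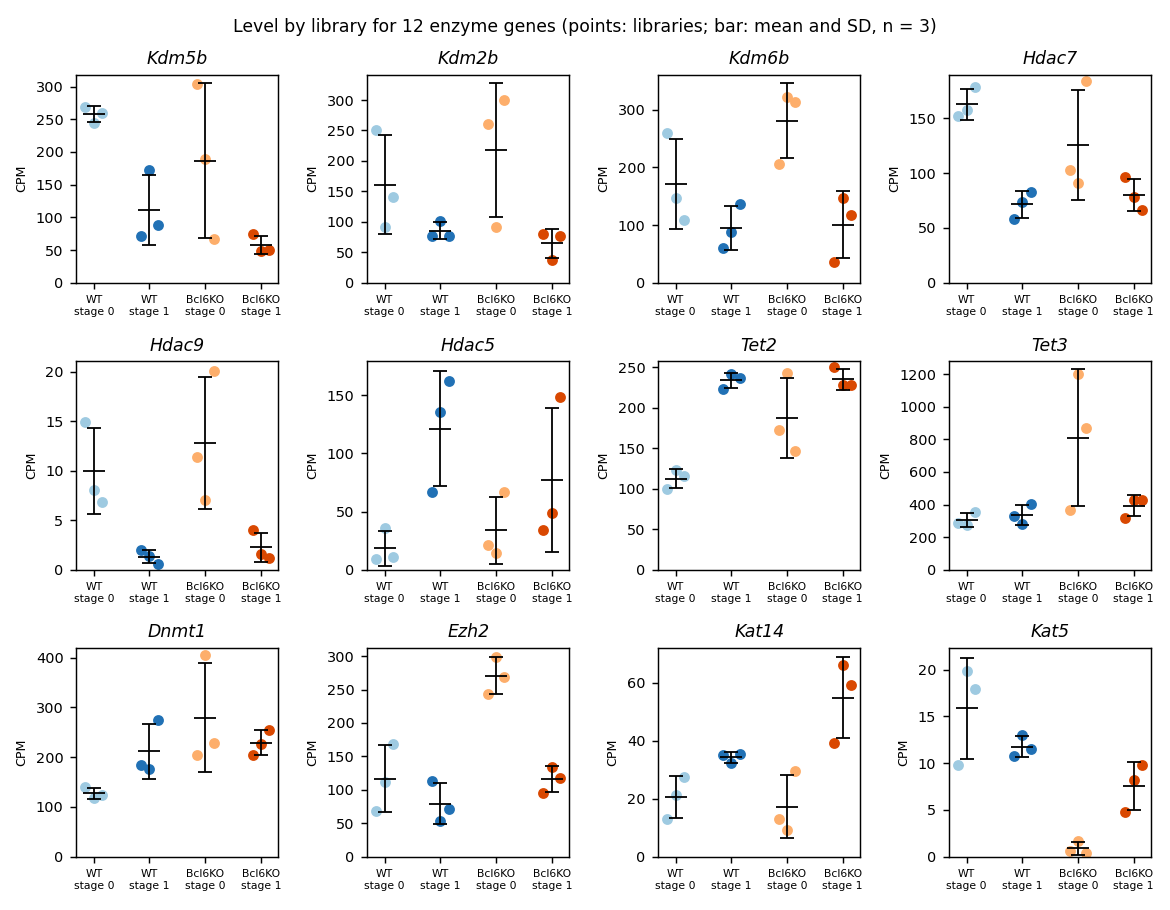
Level in CPM of 12 enzyme genes by library (points), with mean and SD of each group (bars, n = 3). Kdm5b runs from 245 to 269 CPM in WT stage 0 and from 49.1 to 74.3 CPM in Bcl6KO stage 1, and Tet2 from 99.2 to 123 CPM in WT stage 0 and from 224 to 241.5 CPM in WT stage 1.

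The libraries labelled Bcl6KO were then compared with WT at each stage, to ask which enzyme genes differ with the floxed Bcl6 alleles. At stage 0 no enzyme gene passed the test (0 of 72), against 0.0191% of all genes. An unadjusted p under 0.05 was found for 16 (22.2%), against 14.7% of all genes. DESeq2 called 9 of the 72 (5.88% of all genes) and limma voom 0 (0% of all genes). Groups did not overlap for 5 enzyme genes higher in Bcl6KO (4.67% of all genes) and 10 lower (7.95% of all genes). These values stand beside the Sp100 share, the low number of detected genes and the higher dividing-cell sums of the Bcl6KO stage 0 libraries, whose part in them was not tested.

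At stage 1 no enzyme gene passed the test either (0 of 72, against 0% of all genes). None had an unadjusted p under 0.05, against 2.57% of all genes, and DESeq2 (0.127% of all genes) and limma voom (0.0318% of all genes) called none. Groups did not overlap for 6 enzyme genes higher in Bcl6KO (5.87% of all genes) and 2 lower (7.44% of all genes). Averaged over stages edgeR called 0 of 72 (0.00637% of all genes), with 9 under an unadjusted p of 0.05 (12.5%, against 10.9% of all genes). DESeq2 called 3, Kat5, Kdm8 and Sirt5 (2.78% of all genes), and limma voom 0 (0.00637% of all genes).

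The difference of the genotype effects between stages was not past the threshold for any of the 72 (0% of all genes). An unadjusted p under 0.05 was reached by 9 (12.5%, against 7.78% of all genes), DESeq2 called Sirt5 (0.828% of all genes) and limma voom called none (0% of all genes). Genotype differences had the same sign at both stages for 43 of 72 enzyme genes (59.7%), against 54.4% of all genes.

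Of the demethylases, 8 of 17 were higher and 9 lower in Bcl6KO at stage 0 (median log2 difference -0.27). Kdm8, a JmjC-domain enzyme, was at 0, 0 and 0.394 CPM in Bcl6KO stage 0, below the floor, and at 3.18, 1.97 and 52.8 CPM in WT stage 0, where library 3 stood apart. The Y-linked Kdm5d had counts in all 12 libraries. It was at 33.0, 42.9 and 26.6 CPM in WT stage 0 and 44.5, 278 and 49.0 CPM in Bcl6KO stage 0, and at 32.1, 31.0 and 32.2 CPM in WT stage 1 and 57.8, 98.8 and 52.9 CPM in Bcl6KO stage 1. All Bcl6KO libraries lay above WT at both stages (1 of 72 enzyme genes, against 0.688% of all genes). The log2 difference of Kdm5d averaged over stages was 1.5 (SE 0.45, edgeR adjusted p = 0.238). The number of male and female mice in each pool is not given in the labels, and its part in this difference was not tested. Its X-linked paralog Kdm5c averaged 11.8, 10.6, 26.5 and 11.2 RPKM in the WT stages 0 and 1 and the Bcl6KO stages 0 and 1, with an SD of 19.9 RPKM in Bcl6KO stage 0.

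Lysine methyltransferases leaned higher in Bcl6KO at stage 0, where 14 of 18 log2 differences were positive (median 0.30, against -0.01 over all genes) and none passed the test. For Ezh2, whose values are given above, all Bcl6KO stage 0 libraries exceeded those of WT stage 0. The log2 difference was 1.22 at stage 0 (SE 0.38, edgeR adjusted p = 0.198) and 0.55 at stage 1 (SE 0.38, edgeR adjusted p = 1).

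Among genes of DNA methylation 4 of 6 were higher in Bcl6KO at stage 0 (median 0.54). Tet3 was at 288, 275 and 354 CPM in WT stage 0 and 364, 1199 and 868.5 CPM in Bcl6KO stage 0, without overlap. It was at 327, 283 and 401 CPM in WT stage 1 and 319, 428 and 431 CPM in Bcl6KO stage 1. At stage 0 its log2 difference was 1.41 (SE 0.36, edgeR adjusted p = 0.141). DESeq2 called it there with all 12 libraries (log2 difference 1.45, DESeq2 adjusted p = 0.018). Without Bcl6KO stage 0 library 1, the lowest of the 3, Tet3 passed the test (log2 difference 1.75, edgeR adjusted p = 0.0169), as it did averaged over stages (0.98, edgeR adjusted p = 0.0423) and for stage within Bcl6KO (-1.38, edgeR adjusted p = 0.0324).

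For Dnmt1 the log2 difference at stage 0 was 1.14 (SE 0.31, edgeR adjusted p = 0.162) and at stage 1 0.12 (SE 0.31, edgeR adjusted p = 1). For Tet2 it was 0.74 (SE 0.27, edgeR adjusted p = 0.237) and 0.01 (SE 0.26, edgeR adjusted p = 1). The 14 dividing-cell genes had a median log2 difference of 1.19 at stage 0, with 13 positive, and of 0.53 at stage 1, with 13 positive. None of the 14 passed the test at either stage. Their part in the values of Dnmt1 and Ezh2 was not tested.

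Deacetylases, sirtuins and arginine methyltransferases leaned lower in Bcl6KO at stage 0. Negative log2 differences were 6 of 9, 6 of 7 and 5 of 7 in that order, with medians of -0.58, -0.74 and -0.68. Sirt5, at 0 counts in the 3 Bcl6KO stage 0 libraries, was at least 10.9-fold below the WT stage 0 mean of 6.39 CPM (edgeR adjusted p = 0.1). That bound too is one of means and does not hold for each WT library. Hdac8, a class I deacetylase named after its values were seen, was at 21.5, 11.2 and 14.4 CPM in WT stage 0 and 1.2, 1.71 and 2.76 CPM in Bcl6KO stage 0. Its log2 difference was -3.04 (SE 0.96, edgeR adjusted p = 0.203).

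Kat5, the TIP60 acetyltransferase of the NuA4 complex, was at 9.74, 19.9 and 17.9 CPM in WT stage 0 and 0.599, 1.71 and 0.394 CPM in Bcl6KO stage 0. At stage 1 it was at 10.8, 13.0 and 11.5 CPM in WT and 4.77, 8.15 and 9.78 CPM in Bcl6KO. Kat5 was the 1 enzyme gene of 72 whose Bcl6KO libraries lay below WT at both stages, against 0.809% of all genes. The log2 difference was -4.10 at stage 0 (SE 0.97, edgeR adjusted p = 0.126) and -0.63 at stage 1 (SE 0.85, edgeR adjusted p = 1). DESeq2 called Kat5 at stage 0 (DESeq2 adjusted p = 2.67e-05). The counts of Kat5 in Bcl6KO stage 0 were 3, 9 and 2, near the floor of 3 counts. The fitted size at stage 0 therefore depends on the prior count. Of the exonic bases of Kat5 12.1% are shared with Rnaseh2c on the opposite strand.

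**Figure D5:**
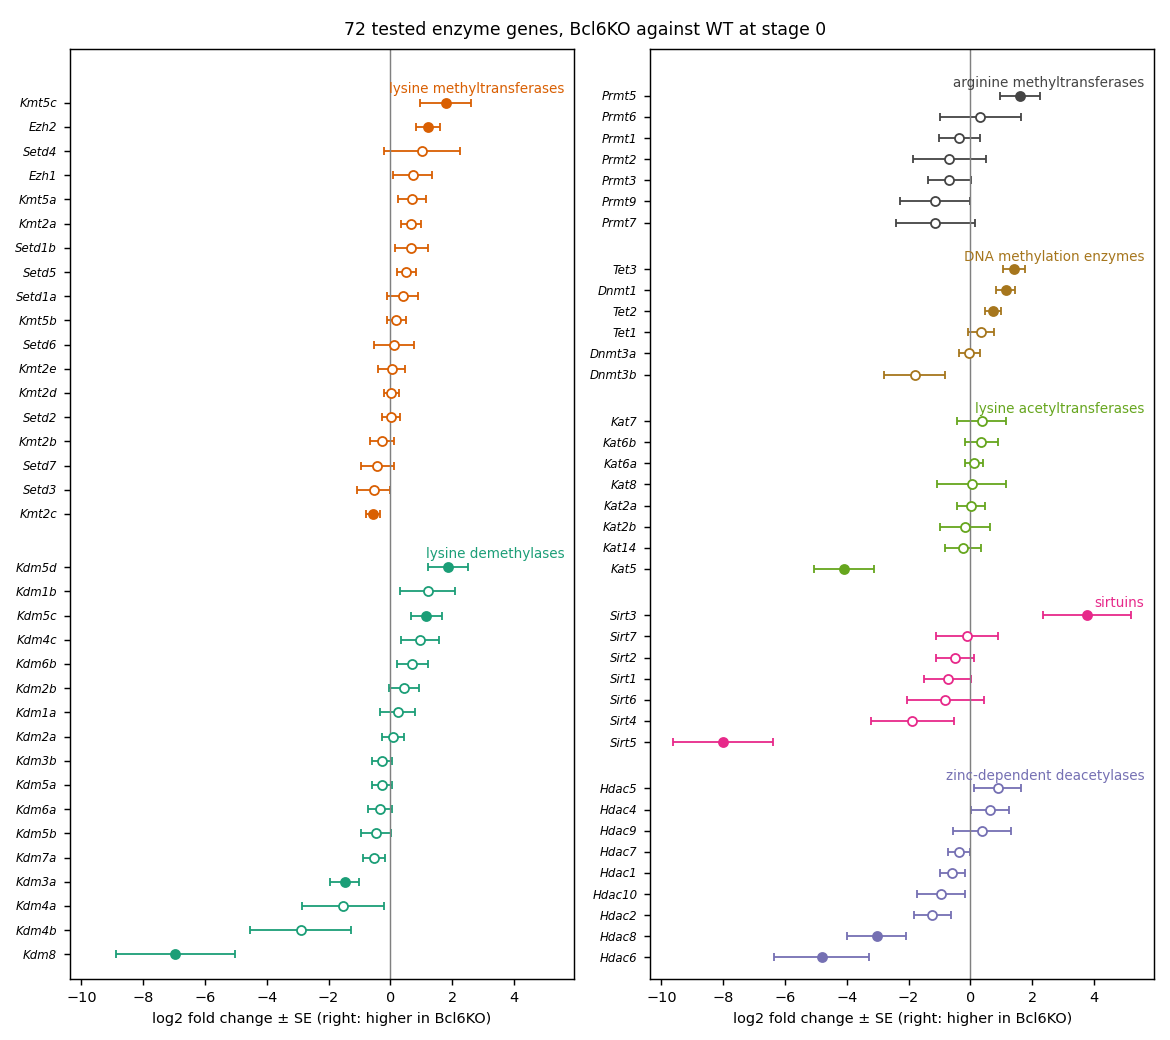
Log2 fold change ± SE of Bcl6KO against WT at stage 0 for the 72 tested enzyme genes by class. Filled points mark an unadjusted p under 0.05 (16 genes) and no gene is past the adjusted threshold. Values for genes at or near 0 counts in Bcl6KO stage 0, such as Sirt5 and Kdm8, depend on the prior count.

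The enzymes work in complexes, so 6 lists of partners and of related enzymes named outside the symbol rule were read in the same fit. Of 10 Polycomb partners 1 fell with stage, averaged over genotypes, where 1.42% of all tested genes fell. This was Mtf2, which brings the complex to CpG islands. It was at 167, 149 and 214 CPM in WT stage 0, 80.1, 76.2 and 65.2 CPM in WT stage 1, 86.8, 156 and 175 CPM in Bcl6KO stage 0 and 86.8, 92.4 and 62.1 CPM in Bcl6KO stage 1. The WT stages did not overlap and the Bcl6KO stages did. Its log2 difference was -1.03 (SE 0.25, edgeR adjusted p = 0.0379). The Mtf2 call was lost in 9 of 12 fits that each left out 1 library (edgeR adjusted p up to 0.106), all but those without library 2 of WT stage 0 or library 1 or 2 of Bcl6KO stage 0. It was also lost with a replicate block (edgeR adjusted p = 0.073), with limma voom (adjusted p = 0.0568), upper quartile scaling, no filter and the Sp100 covariate.

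Of 32 further modifying enzymes 1 fell, against the same 1.42% of all genes: Jmjd1c, a JmjC-domain relative of the Kdm3 demethylases. It was at 515, 356 and 345 CPM in WT stage 0, 258, 279.8 and 203.5 CPM in WT stage 1, 323, 607 and 391 CPM in Bcl6KO stage 0 and 156, 177 and 184.5 CPM in Bcl6KO stage 1. All stage 1 libraries lay below the stage 0 libraries of their genotype, and the log2 difference was -1.03 (SE 0.20, edgeR adjusted p = 0.0163). The Jmjd1c call was lost without WT stage 1 library 1 (edgeR adjusted p = 0.0516) or 3 (0.0529) and with the Sp100 covariate (0.129). No tested gene rose or fell among 25 acetyltransferase partners, 19 deacetylase partners, 12 of 13 COMPASS partners tested or 13 of 14 DNA methylation partners tested. In the genotype comparisons and in the difference between them no partner gene passed the test.

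For the 3 enzyme genes with the lowest p in the averaged stage comparison, the protein-coding genes of most similar pattern were picked by correlation. This was the Pearson correlation r of log2 CPM over the 12 libraries, which share their depth and stage differences. The values of r follow. For Kdm5b these genes were Spats2 (r = 0.928), Apaf1 (r = 0.896) and Mrpl9 (r = 0.896). For Kdm2b they were Aim2 (r = 0.933), Nubp1 (r = 0.915) and Shprh (r = 0.905). For Hdac9 they were Ldlrad3 (r = 0.957), Pld3 (r = 0.934) and Ptprc (r = 0.918).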

How the data were processed

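The authors deposited 1 file of raw read counts per library, made with bcl2fastq, TopHat2, Bowtie2 and DESeq on build mm10, per the submitters' processing notes. For the versions, the counting program and its use of strand, nothing is stated in the labels, so reads of overlapping genes cannot be told apart. Of 48672 IDs, 48312 matched a GENCODE M21 symbol, and the other 360 took 0.195% to 0.366% of counts. Genes were filtered by group (filterByExpr), scaled by TMM and fitted with edgeR 4.0.16 (glmQLFit, robust; 4 group means, 8 residual degrees of freedom), run in R 4.3.3 and tested on simulated data. In each simulated pairwise comparison 50 genes were changed at each size. The fit found 0 to 1 of them at 2-fold, 2 to 3 at 4-fold and 13 to 20 at 16-fold. DESeq2 1.42.0 and limma 3.58.1 were alternatives. CPM uses TMM-scaled totals and RPKM adds the exonic length. A count of 0 allows 3 counts (0.569 to 0.615 CPM), which covers counting error only, as no molecular identifiers are given. Chi-square per gene within groups was 27.6 to 170, so no library was counted as a duplicate. Members, lists and tests were chosen with earlier results of these data known. Named genes were those past the threshold, the 3 highest by RPKM and the 2 of lowest p in each class, a set of enzymes with known roles, and sex-linked members. Of partner lists, at most 2 genes per direction past the threshold were named. Chromatin accessibility was not analysed here.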

Additional observations from a re-analysis of the deposited data

How the results depend on the processing

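Fold changes of named enzyme genes with an unadjusted p under 0.05, of Bcl6 and partner calls, and of genes printed at stage 1 were recomputed in each fit: 1606 kept their side of the threshold, 74 came to pass it and 28 no longer did (14 of Mtf2, 11 of Kdm5b, 3 of Jmjd1c). Signs turned in 6, none past the threshold in either fit. For genotype at stage 1, Dnmt1 was -0.012 with the Sp100 covariate and -0.010 without WT stage 1 library 2 (-0.010 to 0.34 over the fits without 1 library). Tet2 was -0.056 with upper quartile scaling, -0.029 without WT stage 1 library 1 and -0.017 without Bcl6KO stage 1 library 1 (up to 0.028 without 1 library). The difference of effects of Kdm5b was 0.075 without Bcl6KO stage 0 library 1 (down to -0.87 without library 3 of that group). Counts of enzyme genes past the threshold moved as follows. Stage in WT: 4 with DESeq2 (Hdac5, Hdac7, Hdac9 and Tet2) and 2 with limma voom (Hdac7 and Tet2). Stage in Bcl6KO: 13 with DESeq2, and 1, Sirt5, with upper quartile scaling or the stricter filter. DESeq2 called Ezh2, Hdac6, Hdac9, Kat5, Kat14, Kdm2b, Kdm5b, Kdm8, Prmt5, Setd4, Sirt1, Sirt3 and Sirt5 there. Genotype at stage 0: 9 with DESeq2 (Dnmt1, Ezh2, Hdac6, Hdac8, Kat5, Kdm8, Sirt3, Sirt5 and Tet3). Averaged stage: 13 with DESeq2, 3 with limma voom, 2 with RLE or upper quartile scaling, 5 without the filter and 0 with the Sp100 covariate. Those of DESeq2 were Ezh2, Hdac5, Hdac6, Hdac7, Hdac9, Kat14, Kdm2b, Kdm5b, Kdm6b, Setd4, Sirt1, Sirt5 and Tet2. Those of limma voom were Hdac9, Kdm2b and Kdm5b. Averaged genotype and difference of effects: 3 and 1 with DESeq2. Leaving out 1 library in turn gave 0 to 1 (stage in Bcl6KO, genotype at stage 0, averaged genotype), 0 to 5 (averaged stage) and 0 in the rest. Averaged over genotypes, Hdac5 and Kdm2b passed without WT stage 0 library 2, Setd4 without Bcl6KO stage 0 library 1, Hdac5 without library 3 of that group, and Hdac7, Hdac9, Kdm2b and Tet2 without its library 2. The edgeR calls of Tet3 appeared without its library 1. With all 12 libraries DESeq2 called Tet3 for genotype at stage 0.

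Counts over all genes moved more. With DESeq2 they were 362 (stage in WT), 1309 (stage in Bcl6KO), 924 (genotype at stage 0), 20 (genotype at stage 1), 1495 (averaged stage), 437 (averaged genotype) and 130 (difference of effects). Without the filter they were 142, 309, 103, 11, 830, 88 and 7 in that order. Limma voom gave 301, 13 (12 of them lower, against 40 of 106), 0 and 5 for the first 4. The Sp100 covariate gave 42, 18 and 0 for the first 3, 123 for averaged stage and 0 for averaged genotype, and upper quartile scaling gave 0 for genotype at stage 0. Leaving out 1 library gave 20 to 139, 7 to 277, 0 to 133, 0 to 1, 193 to 708 and 0 to 62, and 0 for the difference of effects. The causes were not tested. Without the 4 libraries in which Sp100 took over 5% of counts, a choice made after seeing the data, 0 enzyme genes were called for stage in WT and for genotype at stage 1, and 52 and 0 genes in all.

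With a replicate block the averaged stage calls of Kdm5b (edgeR adjusted p = 0.0522) and Mtf2 (0.073) were lost, leaving 0 enzyme genes, and the counts over all genes were 39 for stage in Bcl6KO and 1 for genotype at stage 0. Libraries that share a number share only that: their deviations correlated at -0.075 to 0.12 over 18 pairs. Limma voom moved the median log2 difference of all genes to 0.30 for stage in Bcl6KO and to -0.26 for genotype at stage 0. With a common biological coefficient of variation of 0.835 and 3 libraries a group, most differences, large ones included, can miss the threshold, so a count of 0 does not show that genes were unchanged.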
